A study of Canis lupus familiaris with 34 samples.

Results

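The genes described here are 10 genes of endothelial identity and of the angiopoietin-TIE pathway, PECAM1, CDH5, TIE1, TEK, ANGPT1, ANGPT2, ESAM, EMCN, CLDN5 and PLVAP. They were picked by gene symbol out of 23768 features, with the canine RefSeq feature taken where a gene was listed both as canine RefSeq and as human XenoRefSeq. All 10 genes passed the filter on low counts, which required 100 counts summed over the dogs and kept 19568 features. The counts come from polyA RNA of whole mitral valves of 34 Cavalier King Charles Spaniels, privately owned dogs of about 10 years of age that were sampled at elective euthanasia. Dogs with myxomatous mitral valve disease (MMVD) and congestive heart failure (CHF) form the 10y-MMVD-CHF group, labelled case, with 6 females and 9 males. Dogs without CHF form the 10y-noCHF group, labelled ctrl, with 10 females and 9 males. Nearly all ctrl dogs also had MMVD, at an earlier stage, so healthy valves are not part of the comparison. Each dog gave 1 sample.

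Endothelial cells cover both faces of the valve leaflets and line the small vessels where the tissue has them. PECAM1, CDH5 (VE-cadherin), ESAM and CLDN5 are adhesion molecules at the contacts between these cells, EMCN is a sialomucin of the cell surface, and PLVAP forms the diaphragms of fenestrae and caveolae. TEK, also known as TIE2, is the receptor tyrosine kinase of the angiopoietins, and TIE1 is its co-receptor without a high-affinity angiopoietin ligand. ANGPT1, released mostly by mural and mesenchymal cells, activates TEK and keeps vessels quiet, whereas ANGPT2, stored and released by endothelial cells, can block or activate TEK depending on the setting.

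The 10 genes are spread over 9 chromosomes of canFam4 (UU_Cfam_GSD_1.0), where only CDH5 and ESAM share one. In the RefSeq annotation of that assembly PECAM1 lies at chr9:14705590-14758833, TEK at chr11:45518478-45616970, TIE1 at chr15:16941001-16959771 and EMCN at chr32:17563776-17683700. CDH5 lies at chr5:83417122-83449500, ESAM at chr5:9677654-9685860, PLVAP at chr20:45813549-45825406 and CLDN5 at chr26:29862380-29864535. ANGPT1 lies at chr13:8284694-8525154 and ANGPT2 at chr16:55977188-56030293. What was counted differs between the genes. ANGPT1 and ANGPT2 were counted over the exons of canine RefSeq models, 1568 and 1978 bases long. The other 8 genes were counted over human transcripts aligned to the dog genome, and these features cover the whole aligned span, with any introns included, from 2329 bases for CLDN5 to 98434 bases for TEK. The CDH5 feature covers 21542 bases and the EMCN feature 96539 bases, fewer than the 32379 and 119925 bases of their RefSeq genes. For these 8 genes reads from spliced and unspliced RNA cannot be told apart, and levels are compared between dogs only, not between genes.

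The depth per dog lay between 48784642 and 81843830 counts without CHF (19 dogs) and between 46185256 and 82361245 counts with CHF (15 dogs). The genes had between 1718 counts (CLDN5) and 720361 counts (PECAM1) in all dogs together. Endothelial RNA was present in every valve, since all 30 other endothelial genes examined had counts in each of the 34 dogs. Their mean log2 CPM was 5.11 ± 0.216 (SD, n = 19) without CHF and 5.13 ± 0.175 (SD, n = 15) with CHF (CPM, TMM-scaled counts relative to library size). The valves differed far more in cardiomyocyte RNA. The mean log2 CPM of 20 cardiomyocyte markers ran from -0.490 to 9.82 without CHF and from 0.949 to 10.7 with CHF. The summed CPM of these markers ran from 57.9 to 29518 and from 83.6 to 61633, and 1 marker, MYL2, was at 0, in 2 dogs. In pieces of tissue, fewer cells of a type and less RNA per cell cannot be told apart.

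The main comparison asked which genes differ between valves of dogs with and without CHF. None of the 10 genes passed an FDR of 0.1 in edgeR's quasi-likelihood test with sex as a fixed effect, where 23 of 19568 features (0.118%) passed. DESeq2 called 64 features (0.327%), again none of them among the 10, and gave unadjusted p-values of 0.00853 for PLVAP and 0.0394 for TEK. At an unadjusted p below 0.05 the test gave 2 of the 10 genes, PLVAP and TEK, both higher with CHF, and 1234 of all features (6.31%). The median log2 fold change of the 10 genes was 0.07, with 7 positive, beside a median of 0.0076 over all features, of which 52.6% were positive. The median size of the fold change, without its sign, was 0.17 for the 10 genes and 0.09 for all features.

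**Figure D1:**
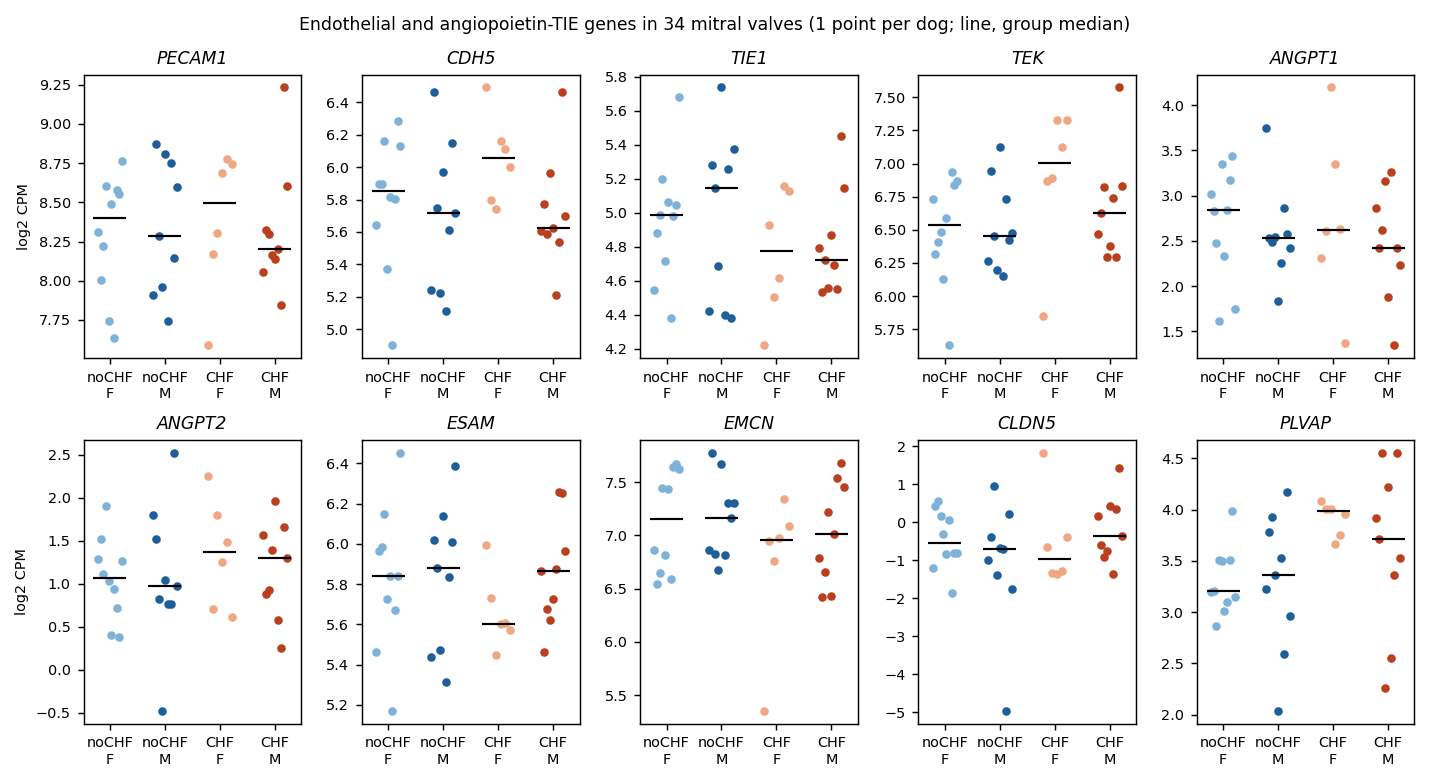
Log2 CPM of the 10 genes (y axis, each panel with its own scale) in females (F) and males (M) of the 10y-noCHF (blue) and 10y-MMVD-CHF (orange) groups. Each point is 1 of 34 dogs and each line a group median. The groups overlap in every panel, PLVAP and TEK sit higher in most dogs with CHF, and CAV749 stands alone at the bottom of CLDN5.

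Among the receptors, TEK had 49.4 CPM in the lowest 10y-noCHF dog, 89.1 in the median dog and 140 in the highest. In the 10y-MMVD-CHF dogs the lowest value was 57.7 CPM, the median 113 and the highest 191. Of the dogs with CHF, 10 of 15 lay above the median of the dogs without CHF and 3 above their whole range, so that the groups overlapped widely. The log2 fold change of TEK was 0.28 (SE 0.136, 95% interval 0.01 to 0.56), with an unadjusted p of 0.0442 and an adjusted p of 0.778 in edgeR. Leaving out 1 dog at a time moved it between 0.21 (without CAV648, p = 0.113) and 0.34 (without CAV1047), and in 20 of 34 such edgeR fits the unadjusted p was no longer below 0.05.

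TIE1, the partner of TEK, leaned the other way. It ran from 20.8 CPM through a median of 31.7 to 53.3 without CHF, and from 18.6 through 26.4 to 43.7 with CHF. Of the dogs with CHF, 11 of 15 lay below the median of the dogs without CHF. The log2 fold change was -0.20 (SE 0.131, 95% interval -0.46 to 0.07), which missed the threshold at an adjusted p of 0.860 in edgeR.

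The ligands did not differ beyond their spread. ANGPT1 had 3.03 CPM in the lowest, 5.80 in the median and 13.4 in the highest dog without CHF, beside 2.50, 6.07 and 18.3 CPM with CHF, and its log2 fold change of 0.04 (SE 0.220) had a 95% interval from -0.41 to 0.49. ANGPT2 had 0.688, 2.01 and 5.72 CPM without CHF and 1.16, 2.44 and 4.74 CPM with CHF, with a log2 fold change of 0.14 (SE 0.214) and a 95% interval from -0.30 to 0.58. The sign for ANGPT1 was not stable, since the XenoRefSeq feature of the same gene, which also covers introns, gave -0.10 (p = 0.608 in edgeR).

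Since both ligands were counted on exons, their levels can be compared per length. ANGPT1 exceeded ANGPT2 in CPM per kilobase of exon in all 34 dogs. Without CHF the median was 3.70 CPM per kilobase for ANGPT1 and 1.02 for ANGPT2, and the ratio within a dog had a median of 4.03, from 1.03 in CAV1732 to 10.7 in CAV579. With CHF the medians were 3.87 and 1.23 CPM per kilobase, and the ratio had a median of 3.10, from 1.18 in CAV373 to 8.24 in CAV487. The range of the ratio with CHF fell inside the range without CHF. The exons of ANGPT2 lie within the span of MCPH1, a gene on the opposite strand, and the counting used no strand. MCPH1 had 227 counts per kilobase over its whole span, beside 2456 counts per kilobase on the ANGPT2 exons, and its log2 fold change was 0.0074. Exon counts made up 36.4% of the counts over the whole ANGPT1 locus (20.3% to 47.8% between dogs) and 47.5% over the ANGPT2 locus (26.5% to 67.9%).

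Of the junction genes, PECAM1, the most highly counted of the 10, ran from 199 CPM through a median of 317 to 469 without CHF, and from 192 through 315 to 602 with CHF. The log2 fold change was 0.03 (SE 0.137, 95% interval -0.25 to 0.31). CDH5, the cadherin of adherens junctions, ran from 29.8 through 55.7 to 88.3 CPM without CHF and from 36.9 through 54.6 to 90.0 with CHF, with a log2 fold change of 0.11 (SE 0.129). Both medians were nearly level between the groups. ESAM varied least of the 10 genes between dogs, with a coefficient of variation of 21.6%. It had 35.99, 57.3 and 87.5 CPM in the lowest, median and highest dog without CHF and 43.6, 52.8 and 76.5 with CHF, and a log2 fold change of -0.08 (SE 0.106, 95% interval -0.30 to 0.13).

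CLDN5, the tight junction claudin of endothelium, had the fewest counts of the 10 genes and the widest interval. It had 0 counts in 1 dog, CAV749, where 3 counts would be 0.0387 CPM. Both reads of a pair were counted, so counts are not independent. The limit that a count of 0 allows lies above that value (counting error only). Without CHF the median was 0.587 CPM and the highest value 1.896 CPM, and with CHF the values ran from 0.357 through 0.627 to 3.54 CPM. The log2 fold change of 0.48 (SE 0.400, 95% interval -0.34 to 1.29) fell to 0.08 without CAV1047, a female. In edgeR fits of each sex alone it was 0.32 in females (unadjusted p = 0.547) and 0.60 in males (unadjusted p = 0.314).

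EMCN had 93.0 CPM in the lowest, 144 in the median and 219 in the highest dog without CHF, and 40.8, 125 and 205 CPM with CHF. With CHF, 3 dogs lay below the whole range of the dogs without CHF, but the log2 fold change of -0.21 (SE 0.163, 95% interval -0.54 to 0.12) missed the threshold with an adjusted p of 0.886 in edgeR. It was -0.13 without CAV1047, the lowest dog.

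PLVAP, a marker of fenestrated and activated endothelium, had the smallest p of the 10 genes. It ran from 4.08 CPM through a median of 9.31 to 17.98 without CHF, and from 4.76 through 15.1 to 23.5 with CHF. Of the dogs with CHF, 13 of 15 lay above the median of the dogs without CHF and 3 above their whole range. The log2 fold change was 0.48 (SE 0.183, 95% interval 0.11 to 0.85), with an unadjusted p of 0.0128 and an adjusted p of 0.625 in edgeR and 0.430 in DESeq2. Leaving out 1 dog at a time kept the log2 fold change between 0.42 and 0.55 and the unadjusted p between 0.00285 and 0.0283. With the cardiomyocyte marker mean in the edgeR fit it was 0.44, with an unadjusted p of 0.0158.

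The females with CHF lay close together in PLVAP. These 6 females with CHF had 15.1 ± 1.68 CPM (SD), from 12.6 to 16.97, beside 10.1 ± 2.49 CPM (SD, n = 10) in the females without CHF. The 9 males with CHF spread from 4.76 to 23.5 CPM (14.01 ± 6.84, SD) and those without CHF from 4.08 to 17.98 CPM (10.7 ± 4.47, SD). In edgeR fits of each sex alone the log2 fold change was 0.58 in females (unadjusted p = 0.000859, adjusted p = 0.196) and 0.39 in males (unadjusted p = 0.220). The difference between these fold changes was not significant (unadjusted p = 0.620 for the interaction of CHF and sex in edgeR). Of all features, 10.7% had an unadjusted p below 0.05 in the edgeR fit of females alone and 3.54% in that of males alone.

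**Figure D2:**
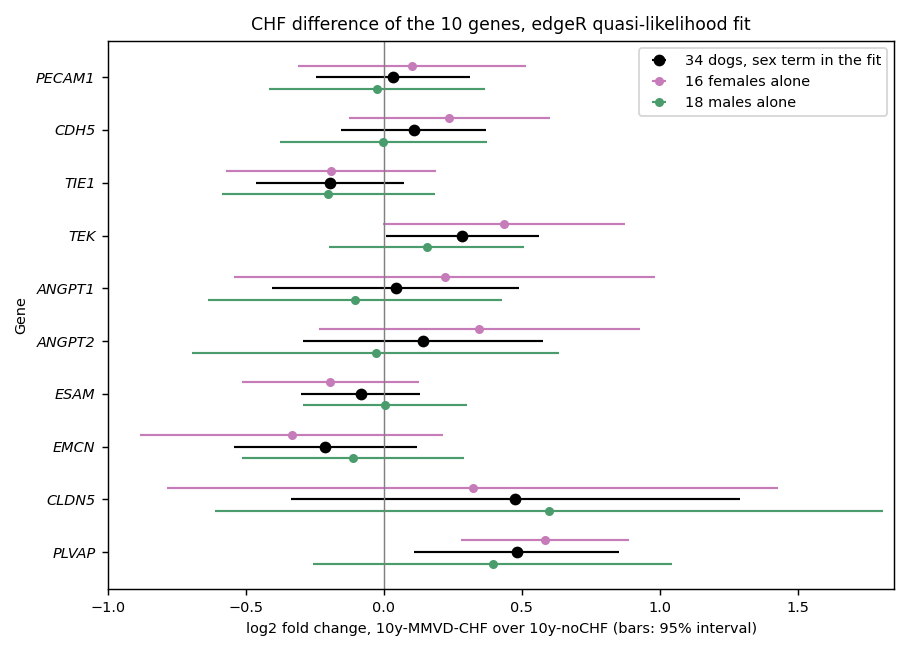
Log2 fold change of 10y-MMVD-CHF over 10y-noCHF (x axis) for each of the 10 genes (y axis), from edgeR's quasi-likelihood fit of all 34 dogs (black), of females alone (pink) and of males alone (green), with bars for the 95% interval. In the fit of all dogs the intervals of TEK and PLVAP alone lie above 0, and TIE1, ESAM and EMCN are the genes with negative values.

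None of the 10 genes passed an FDR of 0.1 for the interaction of CHF and sex, nor did any of the 19568 features (0%). At an unadjusted p below 0.05 the interaction gave none of the 10 genes and 6.02% of all features. The sex term itself passed an FDR of 0.1 for 28 features (0.143%) and an unadjusted p of 0.05 for 2.98% of features, and none of the 10 genes was among either. The largest estimate of the sex term was that of ANGPT1, with a log2 difference between males and females of -0.26 (unadjusted p = 0.246 in edgeR). DESeq2 called 3 features (0.0153%) for the interaction and 37 (0.189%) for sex, and none of the 10 genes in either test.

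From dog to dog the 10 genes did not move as one block. Correlations of log2 CPM were computed over the 34 dogs after the means of the 4 groups of CHF status and sex were removed, for 45 pairs of genes and for the 10 genes with the cardiomyocyte marker mean. The p-values come from 100000 permutations within those groups and were adjusted over all 55 relations. All values of a dog share 1 library and its scaling. Of the 45 pairs, 27 had a positive r, and the median r was 0.21 (0.13 within the dogs without CHF and 0.17 within those with CHF). Over all features with a mean of at least 1 CPM, each of the 10 genes had a positive r with 46.5% to 50.6% of them, with a median between -0.0375 and 0.0055. By Pearson's r 12 pairs passed an adjusted p of 0.05, 11 of them positive. By Spearman's rho 11 pairs passed, and 10 pairs passed by both. CDH5 with TIE1 and CDH5 with TEK passed by r but not by rho (adjusted permutation p = 0.0534 each), and ANGPT1 with CLDN5 by rho only.

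PECAM1 and TEK were the closest pair. Their r was 0.917 and Spearman's rho 0.914 (permutation test, adjusted p = 0.000138 and 0.000275, from raw p-values of 1e-05, the smallest that the permutations can give), and r was 0.888 without CAV648 and CAV1047, the dogs farthest from the median of PECAM1. It was 0.897 within the dogs without CHF and 0.944 within those with CHF. TIE1 and EMCN joined them, with r = 0.827 between PECAM1 and TIE1 (rho 0.786), r = 0.756 between PECAM1 and EMCN (rho 0.721), r = 0.748 between TEK and EMCN (rho 0.708), r = 0.716 between TIE1 and TEK (rho 0.670) and r = 0.647 between TIE1 and EMCN (rho 0.633). These 5 pairs had adjusted permutation p-values between 0.000138 and 0.000367 for r, and without the 2 farthest dogs of the first gene each r stayed between 0.615 and 0.795. Within the groups without and with CHF their r lay between 0.664 and 0.863.

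CDH5 and ESAM formed a further pair with r = 0.656 (rho 0.614, permutation test, adjusted p = 0.00118), and r was 0.569 without the 2 farthest dogs. It was 0.774 within the dogs without CHF and 0.353 within those with CHF. Each also followed members of the first group, as in CDH5 with PECAM1 (r = 0.610, rho 0.559, adjusted permutation p = 0.00193) and ESAM with TIE1 (r = 0.627, rho 0.568, adjusted permutation p = 0.00208). Within the dogs without CHF these r were 0.784 and 0.805, and within those with CHF 0.340 and 0.187. ESAM with PECAM1, which missed the threshold (adjusted permutation p = 0.0531), had an r of 0.713 without CHF and -0.0588 with CHF. Whether r differs between the groups was not tested. In CAV1047 PECAM1, TIE1, TEK and EMCN were each the lowest of the dogs with CHF while CDH5, ANGPT2 and CLDN5 were each the highest, and without CAV1047 the r of CDH5 with PECAM1 was 0.775. Without CAV648 and CAV1047, the dogs farthest from the median of PECAM1, it was 0.703. The r of the ESAM pairs also depended on single dogs with CHF. Over the dogs left without CAV614 and CAV1047, both with CHF, r was 0.7985 for ESAM with TIE1. It was then 0.672 for ESAM with PECAM1 (0.431 with all dogs) and 0.688 for CDH5 with ESAM.

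ANGPT1 stood against this pattern. Its only relation past the threshold by Pearson's r was a negative one with ESAM (r = -0.459, rho -0.503, permutation test, adjusted p = 0.0205), which was -0.405 without the 2 farthest dogs. Valves with more of the TEK ligand ANGPT1 thus had less ESAM, and the r of ANGPT1 with TEK itself was -0.05. With TIE1, ANGPT1 had r = -0.414 and rho -0.423, just short of the threshold (permutation test, adjusted p = 0.0548 and 0.0534). By Spearman's rho it was also negative with CLDN5 (rho -0.451, permutation test, adjusted p = 0.0420), where r was -0.340 (adjusted p = 0.128). ANGPT2 and PLVAP had no relation past the threshold with any of the other genes by either measure, and CLDN5 had none by r.

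**Figure D3:**
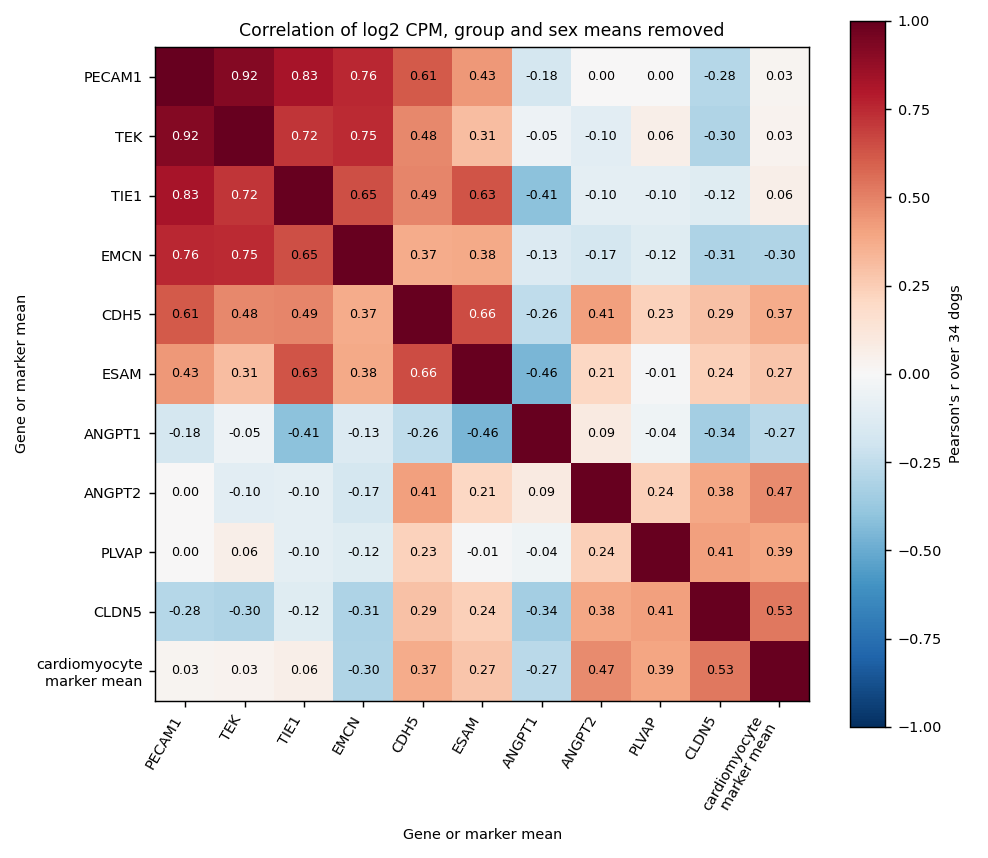
Pearson's r of log2 CPM over 34 dogs, with group and sex means removed, between each pair of the 10 genes and with the mean of 20 cardiomyocyte markers (both axes), on a colour scale from -1 (blue) to 1 (red). PECAM1, TEK, TIE1 and EMCN form a red block, CDH5 and ESAM adjoin it, and CLDN5, ANGPT2 and PLVAP are the genes with the highest r with the cardiomyocyte markers.

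CLDN5, ANGPT2 and PLVAP had the highest correlations with the cardiomyocyte markers. The r with the marker mean was 0.529 for CLDN5 (rho 0.515, permutation test, adjusted p = 0.0151), 0.470 for ANGPT2 (rho 0.479, adjusted p = 0.0442) and 0.394 for PLVAP (rho 0.393, adjusted p = 0.0769, which missed the threshold). Without CAV749 and CAV1196, the farthest dogs, r was 0.458, 0.435 and 0.376. Within the groups without and with CHF r was 0.535 and 0.519 for CLDN5, 0.344 and 0.682 for ANGPT2, and 0.238 and 0.591 for PLVAP. For PLVAP it was 0.0907 in females and 0.515 in males. For PECAM1, TEK and TIE1 the r with the marker mean was between 0.03 and 0.06. CDH5 was close to PLVAP, with r = 0.368 (rho 0.388, adjusted permutation p = 0.120), and ESAM had r = 0.275. EMCN and ANGPT1 were negative, with r = -0.302 and -0.266. None of these passed the threshold by either measure. In the edgeR fit with the marker mean as a covariate, the term of the mean passed an FDR of 0.1 for 3 of the 10 genes, CLDN5 (adjusted p = 0.0158), ANGPT2 (adjusted p = 0.0347) and PLVAP (adjusted p = 0.0862), and for 7253 of all features (37.1%), so that the share among the 10 genes was not above that of all features. The marker mean itself was 5.88 ± 3.41 (SD, n = 19) without CHF and 6.28 ± 2.92 (SD, n = 15) with CHF, a difference that was within the spread (permutation test within sex, p = 0.657).

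**Figure D4:**
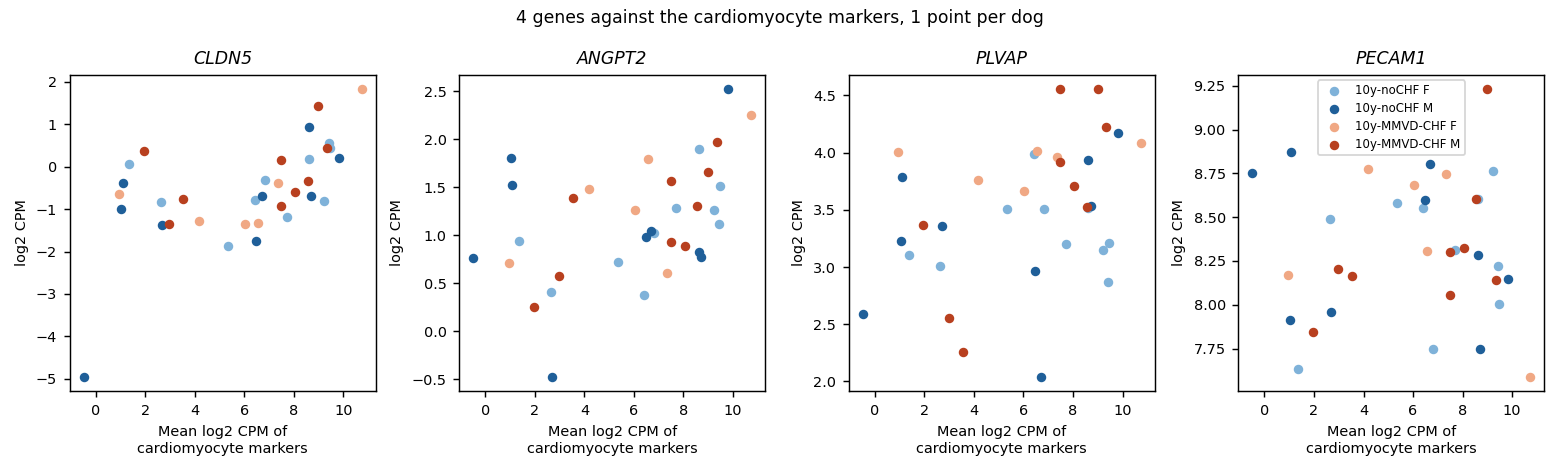
Log2 CPM of CLDN5, ANGPT2, PLVAP and PECAM1 (y axes) against the mean log2 CPM of 20 cardiomyocyte markers (x axis), with 1 point per dog coloured by group and sex. CLDN5 is lowest in CAV749, the dog with the lowest marker mean of -0.490, and highest in CAV1047, the dog with the highest marker mean of 10.7, while PECAM1 shows no trend (r = 0.03).

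Because PECAM1, TEK, TIE1 and EMCN followed each other so closely, their ratios varied less between dogs than the genes themselves. The SD between dogs, with group means removed, was 0.41 on the log2 scale for TEK and for PECAM1 but 0.17 for their ratio. For other pairs the reduction was smaller. The ratio of EMCN to TIE1 had an SD of 0.390, beside 0.504 for EMCN and 0.393 for TIE1. A ratio within a dog does not depend on how libraries are scaled. The ratios were looked at after the values of the genes had been seen, for the 11 pairs with a positive relation past the threshold, and they are described without a test. Ratios of other correlated features are not given beside them. How often such pairs separate the groups to the same degree is therefore not known. The pairs of CDH5 with TIE1 and with TEK passed by r alone. Differences are means of those of females and males, with the SE from the spread between dogs.

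In dogs without CHF the log2 ratio of TEK to PECAM1 ran from -2.12 through a median of -1.76 to -1.58. In dogs with CHF it ran from -1.87 through -1.59 to -1.30. In all, 13 of the 15 dogs with CHF lay above the median of the others and 7 above their whole range. The difference was 0.24 (SE 0.0590), with 0.32 in females and 0.16 in males, and leaving out 1 dog at a time kept it between 0.22 and 0.27.

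The log2 ratio of the receptors, TEK to TIE1, ran from 1.10 through a median of 1.48 to 2.19 without CHF and from 1.51 through 1.96 to 2.71 with CHF. All 15 dogs with CHF lay above the median of the dogs without CHF, although 12 of them lay inside that group's range. The difference was 0.44 (SE 0.107), with 0.59 in females and 0.29 in males, and it stayed between 0.39 and 0.49 with 1 dog left out. The log2 ratio of EMCN to TEK ran from 0.13 through 0.69 to 0.96 without CHF and from -0.50 through 0.08 to 1.24 with CHF. In all, 9 of the 15 dogs with CHF lay below the whole range of the dogs without CHF and 1 above it. The difference was -0.53 (SE 0.118), with -0.79 in females and -0.27 in males, and it stayed between -0.59 and -0.49 with 1 dog left out. TEK is part of the ratios TEK to PECAM1, TEK to TIE1 and EMCN to TEK, so their differences are not separate observations. The other ratios moved less against their error. TEK to CDH5 differed by 0.13 (SE 0.143), which was within its error with all dogs. The difference was 0.28 without CAV1047, whose log2 ratio of -0.64 was the lowest, and 0.08 without CAV1876. Of the 15 dogs with CHF, 12 lay above the median of the dogs without CHF. Above the whole range of the dogs without CHF lay 4, and 1 lay below it. CDH5 to PECAM1 differed by 0.11 (SE 0.124), ESAM to TIE1 by 0.10 (SE 0.109) and EMCN to TIE1 by -0.09 (SE 0.136). TIE1 to PECAM1 differed by -0.20 (SE 0.0833), TIE1 to CDH5 by -0.31 (SE 0.137), EMCN to PECAM1 by -0.29 (SE 0.116) and ESAM to CDH5 by -0.21 (SE 0.104). In females and males, in the same order, the differences were -0.28 and -0.13, -0.45 and -0.18, -0.47 and -0.11, and -0.43 and -0.0021. These genes were counted with introns included, so a shift between spliced and unspliced RNA would enter these ratios, and its part was not tested.

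**Figure D5:**
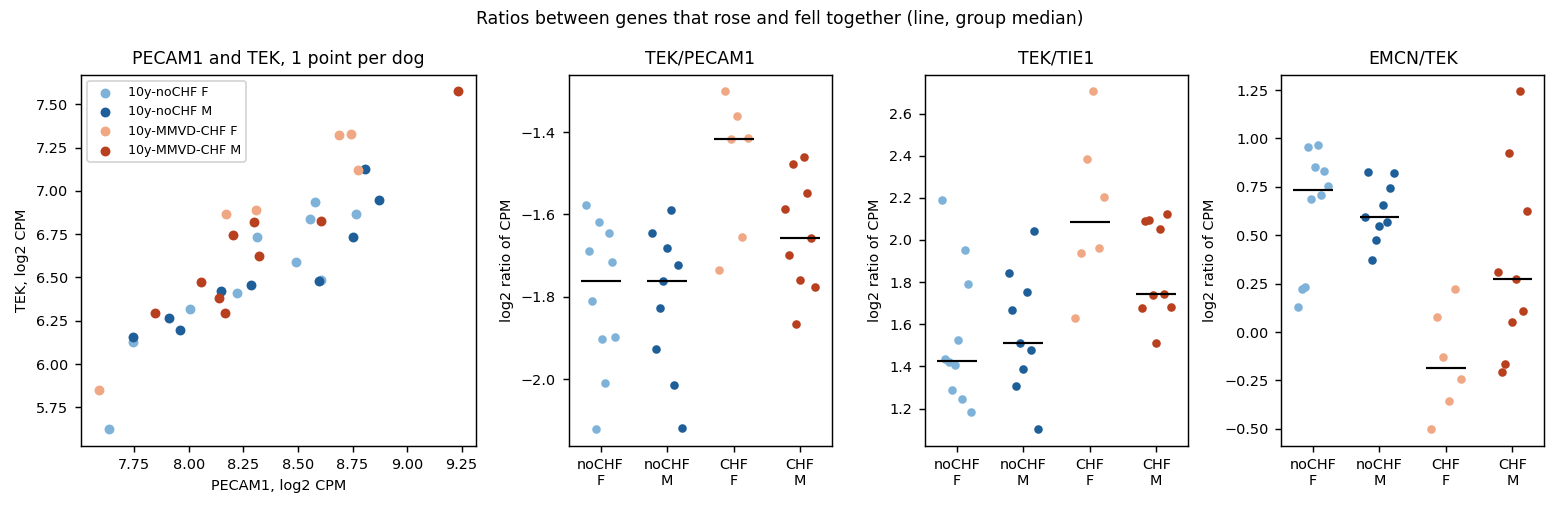
Left, log2 CPM of TEK (y axis) against PECAM1 (x axis), 1 point per dog, coloured by group and sex. Right, log2 ratios of TEK to PECAM1, TEK to TIE1 and EMCN to TEK (y axes) by CHF status and sex (F, females; M, males), with lines for the group medians. All dogs with CHF lie above the 10y-noCHF median of TEK to TIE1, and 9 of 15 lie below the 10y-noCHF range of EMCN to TEK.

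The features most like each gene from dog to dog were taken from those with a mean of at least 1 CPM, by Pearson's r over the 34 dogs with group and sex means removed. For PECAM1 these were TEK, SYT7 (r = 0.886) and the selectin SELP (r = 0.866). For TEK they were PECAM1, SELP (r = 0.882) and NOS3, the endothelial nitric oxide synthase (r = 0.879). SELP was also the nearest to EMCN (r = 0.898 and 0.888 for its XenoRefSeq and RefSeq features), followed by MAP3K9 (r = 0.883).

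TIE1 lay closest to RASIP1 (r = 0.894), CCM2L (r = 0.880) and ECSCR (r = 0.857), and CDH5 to the VEGF receptor FLT1 (r = 0.855), DIP2B (r = 0.846) and ADGRF5 (r = 0.828). The nearest features of ESAM were less close, MRRF (r = 0.715), ARHGEF15 (r = 0.713) and the adhesion molecule NECTIN2 (r = 0.708). The genes outside the endothelial block had other neighbours. ANGPT1 lay nearest to CTNNB1, which encodes beta-catenin (r = 0.766 and 0.753 for its XenoRefSeq and RefSeq features), and NPNT (r = 0.759). ANGPT2 lay nearest to HIPK3 (r = 0.848), SEMA5A (r = 0.833) and RANBP2 (r = 0.816). CLDN5 lay nearest to MYLK4 (r = 0.777), OSR2 (r = 0.767) and the chemokine CXCL12 (r = 0.754). PLVAP had no close neighbour. Its nearest features, CYP3A43 (r = 0.638), CYP3A4 and CYP3A7-CYP3A51P (both r = 0.623), overlap and share their reads, and none of 16170 features had an r above 0.7 with it, whereas 70 features did with PECAM1 and 107 of 16169 with ANGPT2. These are values chosen as the highest among many features and were not tested.

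Other genes of the same cells and pathways were read from the same edgeR fit. Of 30 other endothelial genes, 16 had a positive and 14 a negative log2 fold change, with a median of 0.02, and 1 rose at an FDR of 0.1. This was VWF, the von Willebrand factor stored with ANGPT2 in Weibel-Palade bodies, with 79.6 ± 50.4 CPM (SD, n = 19) without CHF and 205 ± 125 CPM (SD, n = 15) with CHF (log2 fold change 1.40, SE 0.299, adjusted p = 0.0678). Those with the next smallest p, SOX7 (log2 fold change -0.23, adjusted p = 0.787) and ECSCR (-0.27, adjusted p = 0.787), did not pass. Whether the fold changes of VWF and ANGPT2 differ was not tested.

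Among 15 partners of the TIE pathway 11 had a positive log2 fold change (median 0.07), none passed an FDR of 0.1, and 3 had an unadjusted p below 0.05, all higher with CHF, beside 6.31% of all features at that p. These were the phosphatase PTPN11 (log2 fold change 0.16, unadjusted p = 0.0262), the adaptor GRB2 (0.13, unadjusted p = 0.0291) and the kinase subunit PIK3CA (0.14, unadjusted p = 0.0350), with adjusted p-values between 0.733 and 0.762 in edgeR. Of 12 partners at adherens and tight junctions 10 had a positive log2 fold change (median 0.07) and none passed, and CTNNB1, the cytoplasmic partner of cadherins, had the smallest p (log2 fold change 0.18, unadjusted p = 0.00471, adjusted p = 0.480), followed by JAM3 (0.13, unadjusted p = 0.0726). Of 12 FOXO1 and ETS family regulators 6 had a positive and 6 a negative log2 fold change (median 0.0061), and none passed. FOXO3 had a log2 fold change of 0.25 (unadjusted p = 0.00385, adjusted p = 0.448) and KLF4 one of -0.26 (unadjusted p = 0.0221, adjusted p = 0.696).

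Markers of the other cells of the valve gave no call either in edgeR, at an FDR of 0.1. Positive log2 fold changes were found for 7 of 11 genes of mural cells, 3 of 6 of lymphatic endothelium, 3 of 7 of endocardium, 5 of 12 of valve interstitial cells, 18 of 20 of cardiomyocytes, 8 of 10 of macrophages, 8 of 9 of red blood cells and 1 of 6 of platelets. Over all features 52.6% were positive. The cardiomyocyte markers rose and fell together from dog to dog, so their signs are not separate observations. HBA1 and HBA2, both among the red blood cell genes, have identical counts and are the same reads counted for each. The smallest p-values were those of MYH11 (log2 fold change -0.67, unadjusted p = 0.00514) and RGS5 (0.58, unadjusted p = 0.00755) of 11 mural cell genes, FLT4 (-0.14, unadjusted p = 0.234) and RELN (-0.20, unadjusted p = 0.371) of 6 lymphatic genes, and NFATC1 (-0.31, unadjusted p = 0.00376) and GATA4 (0.10, unadjusted p = 0.211) of 7 endocardial genes. In 12 genes of valve interstitial cells they were those of TCF21 (-0.46, unadjusted p = 0.00159) and DCN (-0.23, unadjusted p = 0.0511), in 20 cardiomyocyte markers those of MYL2 (unadjusted p = 0.0421) and MB (0.45, unadjusted p = 0.622), and in 10 macrophage genes those of CSF1R (0.20, unadjusted p = 0.134) and C1QB (0.24, unadjusted p = 0.200). In 9 genes of red blood cells they were those of ALAS2 (unadjusted p = 0.0138) and HBM (unadjusted p = 0.0607), and in 6 platelet genes those of GP6 (unadjusted p = 0.0969) and PPBP (unadjusted p = 0.168). These lists hold genes with single high dogs. MYL2 had a log2 fold change of -2.47, yet its median was 1.14 CPM without CHF, with a highest dog of 538, and 1.58 CPM with CHF. ALAS2 had a log2 fold change of 0.88, with medians of 2.27 and 2.35 CPM and a highest dog of 37.6 CPM with CHF. No difference between the groups in the mean log2 CPM of the 9 cell type lists passed the test (permutation within sex, lowest p = 0.0818 for platelets, adjusted p = 0.737).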

How the data were processed

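Mitral valve polyA RNA of 34 dogs was sequenced as paired reads, and the groups and sexes follow the labels. The authors deposited raw counts per feature, made from reads mapped to canFam4 with STAR and counted with featureCounts 2.0.3. The recorded command assigned a read to every feature it overlapped, used no strand and counted both reads of a pair, so that 66.1% of the counts above 0 of the 10 genes were even. Of the 35 columns with counts, 1 belongs to no sample and was not used. Of 23768 features, 2165 are canine RefSeq and 21603 human XenoRefSeq. The 10 genes were found in the RefSeq table of the same assembly.

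The 19568 features with 100 or more counts in all were tested with edgeR 4.0.16 in R 4.3.3 (TMM, two-sided quasi-likelihood test, sex as a covariate, Benjamini-Hochberg FDR below 0.1). SEs were derived from the test statistic and are approximate. CPM are TMM-scaled counts relative to library size, and log2 CPM used a prior count of 2. Alternatives were DESeq2 1.42.0, limma 3.58.1 voom with sample weights, RLE size factors, filterByExpr, no filter, no sex term, each sex alone, the cardiomyocyte marker mean as a covariate, leaving out CAV614 and CAV1047, leaving out each dog, an FDR of 0.05 and the XenoRefSeq feature. The marker mean's own term and the ratios between genes were added after seeing the data. The edgeR, DESeq2 and voom tests of the CHF difference were tried on simulated data first.

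Genes named are the 10 genes, the 3 features of other symbols most like each, and of each list those with an FDR below 0.1 and the 2 to 4 smallest p. The 10 genes, the lists and the alternatives were chosen with earlier results of these data known. No promoter or protein sequence was used here. Samples from separate dogs are biological replicates, and total counts per dog of 46185256 to 82361245 set the precision. CLDN5 had at most 184 counts in a dog and PECAM1 at least 7500.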

Additional observations from a re-analysis of the deposited data

Results flagged for a closer look

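Of 40 checks of the 10 genes in the 4 groups of CHF status and sex for a single dog standing away from the rest, 5 met Dixon's 95% criterion, where chance gives about 2. The value given for each is the gap to the nearest dog of the group as a share of the group's whole range on the log2 scale. Of these, 3 concern 1 valve, the female CAV1047 with CHF, which had the highest cardiomyocyte marker mean of all dogs (10.7). Its TEK was the lowest of the 6 females with CHF (57.7 CPM, the next 117, gap 0.687), as was its EMCN (40.8 CPM, the next 108, gap 0.707), while its CLDN5 was the highest (3.54 CPM, the next 0.732, gap 0.696). The male CAV648 with CHF had the highest TEK of its group (191 CPM, the next 114, gap 0.584). The male CAV749 without CHF had 0 counts of CLDN5, where the next dog of its group had 0.265 CPM (gap 0.544), and the lowest cardiomyocyte marker mean of all dogs (-0.490). At 0 counts the log2 value, and with it the gap of CAV749, depends on the prior count of 2. No CHF difference of the 10 genes differed between the sexes past an FDR of 0.1 in edgeR.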

How the results depend on the processing

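None of the 10 genes was called at an FDR of 0.1 under any alternative run, with edgeR, DESeq2 or limma voom. The number of all features called was 23, and it was 64 with DESeq2, 13 without a sex term, 9 at an FDR of 0.05, 0 in females alone and 0 in males alone (edgeR, with 2014 and 671 at an unadjusted p below 0.05), and between 8 (without CAV1519) and 28 (without CAV743) with 1 dog left out, where it moved by over 1.5 times in 15 of 34 fits. The number of the 10 genes with an unadjusted p below 0.05 was 2, and it was 1 in females alone, 0 in males alone and 1 to 2 with 1 dog left out. Log2 fold changes of ANGPT1 turned from 0.04 to -0.0437 with voom, -0.10 in males alone and -0.10 with the XenoRefSeq feature, and ran from -0.15 to 0.16 with 1 dog left out. In males alone PECAM1 turned to -0.0258, CDH5 to -0.0029, ANGPT2 to -0.0303 and ESAM to 0.0045, and PECAM1 ran from -0.0461 to 0.0846 with 1 dog left out. The log2 ratios of CDH5 to PECAM1 and of ESAM to TIE1 turned to -0.0313 and -0.0304 without CAV614 and CAV1047, and that of EMCN to TIE1 to 0.0204 in males alone. TEK and PLVAP stayed positive under every alternative, from 0.15 to 0.44 and from 0.39 to 0.58, and CLDN5 fell to 0.04 without CAV614 and CAV1047. The median r between the genes was 0.21, and it was 0.10 with the cardiomyocyte marker mean removed, 0.22 with RLE size factors and 0.15 without CAV614 and CAV1047. The causes were not tested. No paired analysis was possible because the dogs of the groups share no replicate numbers. CLDN5 had the fewest counts (0 to 184 per dog), and how far counting error sets its spread was not tested.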
